A study of Homo sapiens with 10 samples.

Results

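H4K16ac was compared between immortalized human astrocytes kept for 7 days in doxycycline at 1 µg/ml, which then express IDH1-R132H (genotype label IDH1-R132H), and the same line without doxycycline (genotype label WT IDH1). The line, abbreviated IHA, is a fetal astrocyte line immortalised with SV40, in which doxycycline induces the mutant enzyme; the labels name neither the promoter nor whether the line is 1 clone. The comparison takes 2 of the 10 samples of the series, 1 library a side, and 195694 of the 771215 islands listed on chromosomes 1 to 22. The 7-day list held 86103 of these islands and the list without doxycycline 109591. An island is a stretch in which the authors' caller found more antibody reads than in a control library. That control was made with an HRP secondary antibody from 200000 cells without doxycycline, and it served both lists. With 1 library a side there is no replicate error and no test: no interval below covers a difference between libraries. Intervals of shares and of read ratios cover counting error only, and since the labels name no molecular identifiers, PCR copies may make even that error too small. Intervals of medians come from the spread among regions of the same pair of libraries, which are not replicates. Cells that received doxycycline but lacked the mutant enzyme were not analysed here, so doxycycline, time in culture and IDH1-R132H cannot be told apart. The lists carry no gene names, and the astrocyte label was not checked against marker genes.

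H4K16ac is acetylation of lysine 16 on the tail of histone H4. In human cells it is written mainly by the acetyltransferase KAT8 (MOF) in the MSL and NSL complexes and removed by sirtuins, among them SIRT1 and SIRT2. Acetylation at this residue weakens contacts between neighbouring nucleosomes and is associated with less compact chromatin, and in human cells it extends over transcribed genes and enhancers as well as promoters. IDH1-R132H is the glioma-associated form of isocitrate dehydrogenase 1, which converts 2-oxoglutarate to 2-hydroxyglutarate, an inhibitor of dioxygenases that include histone and DNA demethylases.

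The 7-day library was the larger by 3.11 times, as measured by the constant that relates each list's log2 fold to its counts. The 7-day counts were therefore thinned at random, each read being kept with probability 0.321, and 78612 of the 86103 islands (91.3%) still met the smallest count of 11 reads and the largest p-value of the list without doxycycline. The kept islands held 5676586 thinned reads, against 4192346 reads without doxycycline. Scaled to library size, HRP reads over the same islands came to 45.2% of these reads at 7 days and 30.6% without doxycycline. Less this background, the islands held 3113190 reads at 7 days and 2907450 without doxycycline, a ratio of 1.07, against 1.35 before subtraction. Thinning matched the counts, but the island borders stayed those called at full depth. Covered length and reads per kb were thus not matched for depth. Covered length followed library size in the other marks too: H3K9ac covered 12.9% of chromosomes 1 to 22 at 7 days and 10.8% without doxycycline, with libraries 4.88 and 3.05 times the HRP library, and H3K27ac covered 7.57% and 10.5%, with libraries 1.49 and 3.98 times its size.

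H4K16ac lay in fewer, longer and thinner islands after 7 days. The kept 7-day islands covered 546.8 Mb, against 274.8 Mb without doxycycline, 1.99 times as much. Their median length was 5000 bp at 7 days and 2000 bp without doxycycline, and the longest island measured 131.0 kb at 7 days and 39.8 kb without doxycycline. Read density was 10.4 reads per kb of island at 7 days and 15.3 without doxycycline, a ratio of 0.680. The HRP control had the same density under both lists, 1.85 reads per kb, so the fold over HRP was 2.21 at 7 days and 3.26 without doxycycline. Each of these differences is between 2 libraries and has no replicate spread to set it against.

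The change in length ran through the whole size range. Islands of 20 kb and over numbered 3388 in the kept 7-day list and 18 without doxycycline, and made up 18.1% and 0.157% of the covered length. Islands under 2 kb numbered 3584 at 7 days and 46835 without doxycycline, or 1.00% and 22.1% of the covered length. Density was lower at 7 days in each of the 5 length classes, at 13.6 reads per kb at 7 days against 18.1 without doxycycline below 2 kb, and at 11.7 against 18.7 at 20 kb and over. The order of library sizes was the same as that of covered length across the time course, with 274.8 Mb and a size of 2.53 times the HRP library without doxycycline, 332.7 Mb and 3.08 at 2 days, and 583.8 Mb and 7.88 at 7 days before thinning. Days of doxycycline and depth cannot be told apart in these lengths.

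**Figure D1:**
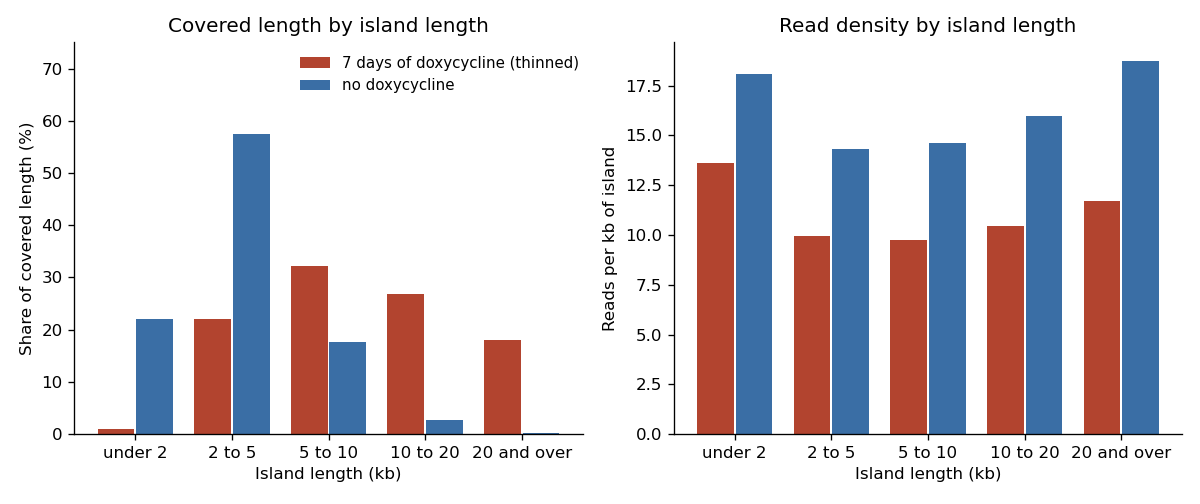
Share of covered length (left, percent) and reads per kb of island (right) by island length in kb, for the kept 7-day islands after thinning and the islands without doxycycline, 1 library each. The 7-day islands have 18.1% of their length in islands of 20 kb and over, against 0.157% without doxycycline, and have fewer reads per kb in every class.

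Many 7-day islands took in several islands that were separate without doxycycline. Of the 86103 deposited 7-day islands, 18103 (21.02%) spanned at least 2 islands of the list without doxycycline, 1556 spanned at least 5, and 1 spanned 21. Together those that spanned at least 2 took in 48533 (44.3%) of the islands without doxycycline. The opposite pattern was rarer: 3874 islands without doxycycline (3.53%) spanned at least 2 of the 7-day islands. In the kept list, after thinning, the sequence covered at 7 days and not without doxycycline came to 357.5 Mb. Of it, 20.9% filled gaps between islands that a single 7-day island joined, 44.7% was outer edge of 7-day islands that overlapped an island without doxycycline, and 34.4% lay in 7-day islands of their own. For kept 7-day islands without any overlap the median distance to the nearest island without doxycycline was 4.4 kb, and 54.0% lay within 5 kb. Neighbouring islands without doxycycline were themselves a median of 5.2 kb apart.

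Islands without doxycycline were found again at 7 days according to their read number. A kept 7-day island overlapped 71.1% of them (95% interval 70.8 to 71.3, Clopper-Pearson) and a deposited one 74.7% (74.4 to 74.9). In the other direction 64.3% (63.9 to 64.6) of the kept 7-day islands overlapped an island without doxycycline. Among islands with 11 to 20 reads without doxycycline, 58.6% had a deposited 7-day island. This share was 72.9% at 21 to 50 reads, 92.1% at 51 to 100 and 98.6% above 100 and up to 200, and all 244 islands with more than 200 reads had one. Read number went with length, since density without doxycycline was 14.3 to 18.7 reads per kb across the length classes. Overlap needed 1 bp only, and deposited 7-day islands covered 20.3% of chromosomes 1 to 22. The part of length in these shares was not tested. Fold over HRP ordered the islands less clearly, with 68.4% found again below 2-fold, 76.8% at 2 to 4-fold, 78.8% at 4 to 8-fold and 73.4% at 8-fold and over. The last class had a median of 25 reads and 0 HRP reads, so its high folds rest on few reads.

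Merging touching islands of both lists gave 46936 shared regions, which held 80.05% of the thinned 7-day reads and 78.4% of the reads without doxycycline. Another 27557 regions had an island at 7 days only, with a median of 35 thinned reads over 3800 bp. Regions with an island without doxycycline only numbered 27123 against all deposited 7-day islands, with a median of 25 reads over 1800 bp. A further 3897 such regions had a 7-day island that did not pass after thinning. Few regions seen in one list only were rich in reads: 701 of those seen at 7 days only and 41 of those seen without doxycycline only reached 100 reads. No island in a list means that the stretch did not pass the caller, not that it held no reads.

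Over the shared regions, summed reads were higher at 7 days and reads per kb lower. The median log2 ratio of summed reads, 7 days over no doxycycline, was 0.42 (95% order-statistic interval 0.42 to 0.43, quartiles -0.049 and 0.95). At least 2-fold higher in summed reads were 10970 regions (23.4%), and 1242 (2.65%) were at least 2-fold lower. Per kb of island the median log2 ratio was -0.56, with 8 regions (0.017%) at least 2-fold higher and 6698 (14.3%) at least 2-fold lower. The direction of the summed reads turned on the scaling. Thinning the 7-day counts to equal reads in the listed islands is a mean shift of 0.51 in log2, before islands are tested again. In that setting the median was -0.11, and 2998 regions were at least 2-fold higher and 3587 lower. The HRP reads of the renewed island test were not lowered with the counts, so these values come from a smaller set of 7-day islands. With scaled HRP reads subtracted the median was 0.057 (0.048 to 0.066), with 6247 higher and 4408 lower. With log2 ratios taken relative to their own median 5316 were higher and 3679 lower.

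**Figure D2:**
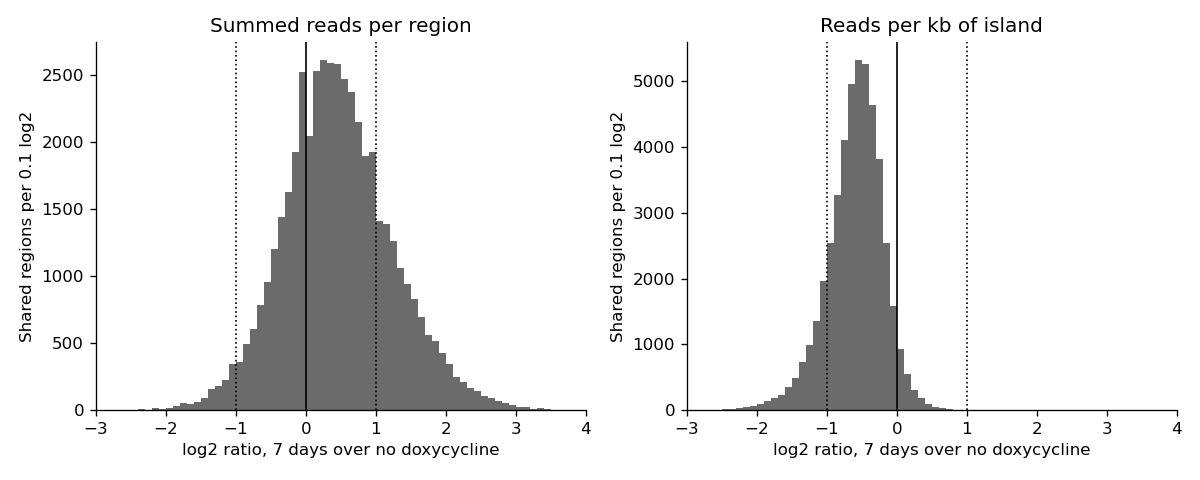
Distribution over 46936 shared regions of the log2 ratio of H4K16ac, 7 days over no doxycycline, for summed reads (left) and reads per kb of island (right); bars count regions per 0.1 log2, the solid line is 0 and the dotted lines are 2-fold. Summed reads centre above 0 (median 0.42) and reads per kb below 0 (median -0.56).

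A sum over separately called islands is their length times their density, and the length differed most. The called length per shared region was a median of 2 times that without doxycycline, and 89.7% of the regions were longer at 7 days. In the 10970 regions at least 2-fold higher in reads the called length was a median of 4.2 times, and in the 1242 at least 2-fold lower 0.636 times, as the sums largely require. Per kb of island both sets were lower at 7 days, with median log2 ratios of -0.61 and -0.64, and 460 (4.19%) of the 2-fold higher regions were higher per kb. Where the called lengths were alike, the longer less than 25% longer than the shorter, the median log2 ratio of summed reads was -0.33 over 6732 regions, 1 of them at least 2-fold higher and 283 at least 2-fold lower. Among pairs of islands that overlapped by 80% both ways it was also -0.33, over 2660 pairs. Called length itself depends on reads and depth, so choosing regions of like length leaves the lower density of the 7-day list to set the sign of these medians.

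Regions of like length with at least 100 reads in either list numbered 1390, and the 10 with the highest and the 10 with the lowest ratios are named here. The rule takes the ends of the distribution, so their ratios and intervals are a description and test nothing. The median log2 ratio of the 1390 was -0.27. The highest was at 10p14 (chr10:12033401-12040600), with 119 thinned reads at 7 days against 72 without doxycycline, a log2 ratio of 0.72 (counting interval 0.29 to 1.17). At 2p23.3 (chr2:24464801-24473600) there were 140 thinned reads at 7 days and 89 without doxycycline, a ratio of 0.65 (0.26 to 1.05). At 10q26.13 (chr10:126521801-126529200) there were 108 and 70 reads in that order, a ratio of 0.63 (0.18 to 1.08). None of these 3 regions reached 2-fold higher. The next were at 1q22, 9p21.1, 12p13.1, 17q25.3, 21q21.3, 14q24.3 and 12q22, and the smallest of the 10 ratios was 0.34. Except at 12p13.1 and 17q25.3, these 10 regions reached 100 reads at 7 days only. Their counting intervals come from the counts that picked them, so an interval above 0 is no evidence of a rise. The interval included 0 at 21q21.3, 14q24.3 and 12q22 with and without thinning. At 9p21.1 it included 0 without thinning (-0.12 to 0.65). All 10 had a greater called length at 7 days, such as 7200 bp against 5800 bp at 10p14. Scaled to equal reads in islands, 4 of the 10 were above 0. At the other end, 4q31.22 (chr4:147250601-147260400) had 42 thinned reads at 7 days against 108 without doxycycline, a ratio of -1.36 (-1.91 to -0.84). The region at 12q23.3 (chr12:104985001-104992800) had 42 reads at 7 days and 105 without doxycycline, a ratio of -1.32 (-1.87 to -0.79). The shortest of the named regions, at 17p13.3 (chr17:2238201-2242000), had 43 reads at 7 days over 3600 bp and 104 without doxycycline over 3800 bp, a ratio of -1.27 (-1.82 to -0.75). The others were at 16q22.1, 4q25, 3q25.2, 18q12.1, 7q32.3, 1q25.3 and 1q32.2, and the ratio nearest to 0 among the 10 was -1.10. All 10 of the lowest reached 100 reads without doxycycline only, and their intervals too come from the counts that picked them. Per kb of island the 10 highest lay between 0.064 and 0.41, and the 10 lowest between -1.20 and -0.79. Less scaled HRP reads the log2 ratios were 0.32 to 1.16 and -2.34 to -0.88.

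The 2-day library, 1.22 times the size of that without doxycycline, gives a further value for the named regions, although the library without doxycycline is shared and entered the rule. Counts at 2 days are given here after division by 1.22. At 4q31.22 the reads without doxycycline, at 2 days and at 7 days after thinning were 108, 46.0 and 42. At 12q23.3 they were 105, 27.9 and 42, and at 18q12.1 they were 112, 82.9 and 52. All 10 of the lowest regions had fewer reads at 2 days than without doxycycline, 6 of them fewer than at 7 days, and 16q22.1 had no island at 2 days. At 10p14 the reads were 72, 134.6 and 119 in the same order of times, and at 2p23.3 they were 89, 55.8 and 140. Of the 10 highest regions, 3 (10p14, 10q26.13 and 12p13.1) had more reads at 2 days than without doxycycline and 7 had fewer. The 2-day values thus lay below those without doxycycline at both ends in most regions. The share of all regions of like length with fewer reads at 2 days is not given here. The lowest regions were also picked in part for many reads without doxycycline, which alone favours fewer reads at 2 days. These counts therefore describe the named regions and cannot set them apart from the other regions of like length. The 2-day values sum called islands only and were not matched for length. The 2-day islands covered less of the region than those without doxycycline everywhere but at 10p14 and 10q26.13. At 4q31.22 they covered 32.7% against 71.4%, and at 18q12.1 50% against 85.7%. The part of called length in the 2-day values was not tested.

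Other acetylation marks overlapped the 20 named regions as follows. An H3K27ac island without doxycycline overlapped 8 of the 10 lowest regions and 3 of the 10 highest, beside 68.2% of the 1390 regions of like length and 52.6% of all shared regions. At 7 days these counts were 8 and 5, beside 77.6% of the 1390. An H3K9ac island without doxycycline overlapped 8 of the 10 lowest and 9 of the 10 highest, beside 89.9% of the 1390. The most H3K27ac reads without doxycycline were 1713 at 12q23.3 among the lowest regions and 915 at 17q25.3 among the highest. At 16q22.1 (chr16:68421401-68430800), one of the 10 lowest, neither H3K9ac nor H3K27ac had an island in the lists without doxycycline or at 7 days.

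**Figure D3:**
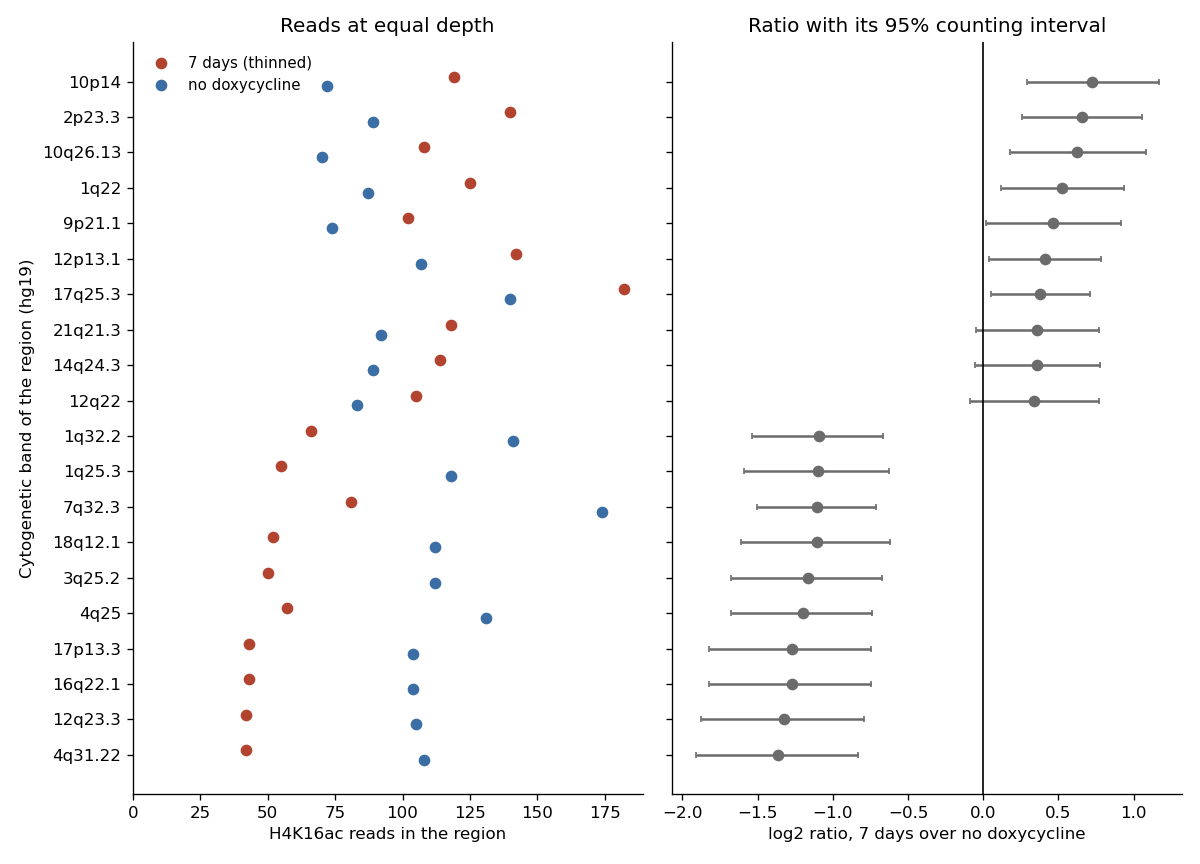
H4K16ac reads (left, 7 days thinned and no doxycycline) and their log2 ratio, 7 days over no doxycycline, with 95% counting intervals (right) in the 10 highest and 10 lowest regions of like called length with at least 100 reads, named by hg19 band. The 10 highest ratios run between 0.34 and 0.72 and the 10 lowest between -1.36 and -1.10.

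The H4K16ac ratio was lower where H3K27ac was denser. The 24686 shared regions with an H3K27ac island without doxycycline were ordered by H3K27ac reads per kb and divided into 10 bins. The median log2 ratio of H4K16ac summed reads was 0.51 in the bin with the fewest H3K27ac reads per kb and 0.14 in the bin with the most. Less scaled HRP reads these medians were 0.20 (0.17 to 0.24) and -0.21 (-0.25 to -0.17), and per kb of island -0.49 and -0.62. The sparsest bin had a median of 91 thinned reads at 7 days and 59 reads without doxycycline, and the densest bin 53 and 48. The regions also differed in size: the median span was 9200 bp in the sparsest bin and 5800 bp in the densest, and the called length at 7 days over that without doxycycline was 2 and 1.67 times. The part of region length in this order was not tested.

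For the 33775 regions with an H3K9ac island without doxycycline the order was similar. The median was 0.52 in the bin with the fewest H3K9ac reads per kb, 0.58 in the next and 0.12 in the bin with the most, and less HRP reads it was 0.18 in the first and -0.22 in the last. The median span was 7800 bp in the first bin, reached 9800 bp in bin 4 and was 5400 bp in the last. With bins from the 7-day lists, the first and last medians were 0.49 and 0.16 for H3K27ac and 0.52 and 0.10 for H3K9ac. The bins by H3K27ac and H3K9ac were chosen after the data were seen. With bins by H4K16ac reads per kb at 2 days, over 35360 regions, the medians were 0.45 in the first, 0.53 in bin 5 and 0.27 in the last. Less HRP reads they were 0.049, 0.15 and -0.075, at median spans of 6200, 9600 and 6200 bp. A lower ratio in the densest bin was thus not particular to H3K27ac and H3K9ac. By class of mark, regions with an H3K9ac island and no H3K27ac island had the highest median, 0.54 over 11210 regions, and those with both had 0.37 over 22565. Regions with H3K27ac alone had 0.33 over 2121, and regions with neither 0.42 over 11040.

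**Figure D4:**
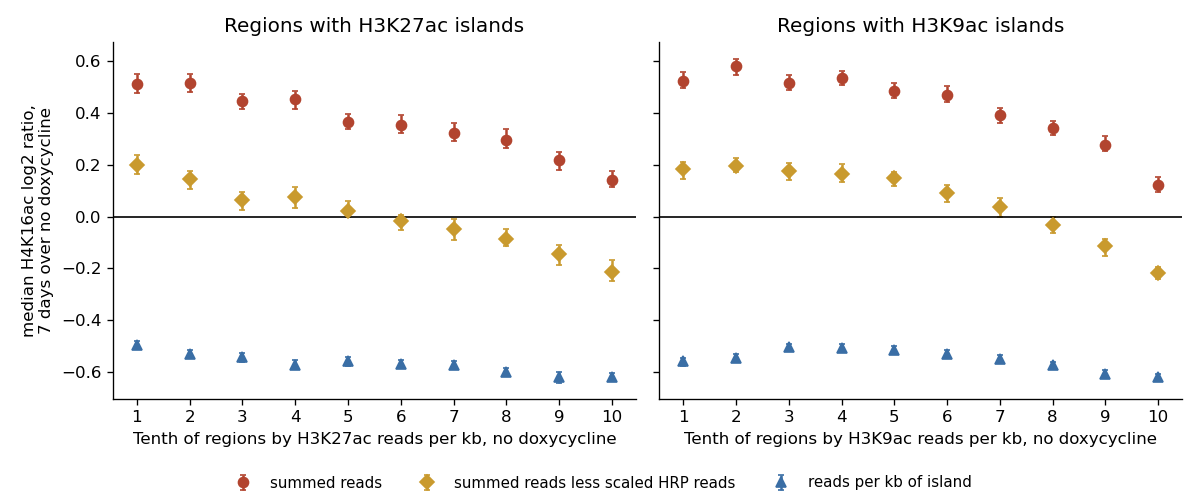
Median log2 ratio of H4K16ac, 7 days over no doxycycline, in 10 bins of shared regions ordered by H3K27ac (left) or H3K9ac (right) reads per kb without doxycycline; bars are 95% order-statistic intervals. In summed reads the first and last medians are 0.51 and 0.14 for H3K27ac and 0.52 and 0.12 for H3K9ac; less scaled HRP reads the last medians lie below 0, at -0.21 and -0.22.

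Sequence covered by H4K16ac islands at 7 days only lay more often in H3K9ac islands, and less often in H3K27ac islands, than sequence covered without doxycycline only. Of the 357.5 Mb covered at 7 days only, 36.8% lay in a 2-day H4K16ac island, against 21.5% of the 77.4 Mb covered without doxycycline only and 57.0% of the 189.3 Mb covered in both. H3K9ac islands at 7 days covered 37.4% of the 7-day-only sequence and 29.9% of the sequence covered without doxycycline only. For H3K9ac without doxycycline these shares were 29.8% and 27.02%. H3K27ac ran the other way: its islands without doxycycline covered 23.9% of the 7-day-only sequence and 29.0% of that covered without doxycycline only. In sequence with no H4K16ac island in either list, 3.01% lay in a 2-day H4K16ac island, and 3.83% and 5.41% lay in islands of H3K9ac and H3K27ac without doxycycline. These shares take base pairs of single libraries and have no error of their own.

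The 7-day-only regions with the most reads were wide and stood little above the control. The first, at 4q21.3 (chr4:87511601-87537600), held 274 thinned reads over 26000 bp, a fold over HRP of 1.27. The region at 7q31.33 (chr7:127000601-127031200) held 266, a fold of 1.17, and had no H4K16ac island at 2 days. At 4q28.1 (chr4:126262001-126285400) there were 248 thinned reads, a fold of 1.74, and the 5 islands at 2 days held 322 reads. The other 2, at 7q36.3 and 12q21.2, held 246 and 244 thinned reads at folds of 1.21 and 1.10. Islands of other marks without doxycycline lay in most of these 5 regions: H3K9ac in 4 of them and H3K27ac in 4, with none of either at 4q28.1. Wide islands commonly held them: of all 3415 deposited 7-day islands of 20 kb or more, 3323 held H3K9ac and 2415 H3K27ac islands without doxycycline.

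The 5 regions seen without doxycycline only and with the most reads were shorter. They lay at 5q14.1 (chr5:79373001-79382000) with 166 reads, 5q31.3 with 157, 20q13.32 with 152, 5q35.1 with 148 and 17p13.2 with 135, at folds over HRP between 1.62 and 2.43. All 5 had an H4K16ac island at 2 days, which held between 26 and 166 reads. Each also had an H3K9ac island without doxycycline, and 2 of the 5 had one at 7 days. The share of all such regions with these islands is not given here. Folds over HRP were thus at most 2.43 in these 10 regions, 5 of each kind.

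The widest 7-day islands lay over clusters of islands that were present without doxycycline. At 6q15 (chr6:90361401-90492400) a single island of 131.0 kb held 1811 thinned reads at 7 days, against 1144 reads without doxycycline in 21 islands that covered 53.7% of the span, a log2 ratio of 0.67. The next, of 123.8 kb at 17p11.2 (chr17:16972601-17096400), held 2169 thinned reads at 7 days and 2045 without doxycycline, in 7 islands over 83.5% of the span, a ratio of 0.087. Islands at 15q22.31, 17p13.1 and 22q11.23 spanned 118.8, 114.6 and 113.0 kb and had ratios of 0.22, 0.12 and 0.13. Scaled to equal reads in islands, the ratio stayed above 0 at 6q15 and lay below 0 in the other 4. In 4 of these 5 islands the summed reads thus differed little between the lists while 1 island at 7 days corresponded to 7 to 17 without doxycycline. With counts divided by library size, H3K9ac was also higher at 7 days in all 5 spans, by 0.11 to 0.84 in log2. Its islands also covered more of each span at 7 days, such as 71.1% against 43.2% at 6q15, and length was not matched. On the same scale H3K27ac was higher in 4 of them and lower at 17p11.2, with a log2 ratio of -0.75. There it had 6671 reads without doxycycline, the most of the 5 spans. At 6q15 and 15q22.31 the H3K27ac ratios rest on few reads, 67 and 49 at 7 days against 89 and 116 without doxycycline before division. H4K16ac folds over HRP at 7 days were 2.72 at 6q15, 2.58 at 15q22.31, 2.32 at 17p13.1, 2.10 at 22q11.23 and 1.99 at 17p11.2. The islands at 17p11.2 and 17p13.1 held the most HRP reads of the 5, 431 and 368.

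Over all 3415 deposited 7-day islands of 20 kb or more, the median span was covered to 47.3% by islands without doxycycline and to 64.4% by islands at 2 days, and 21 held none of those without doxycycline. H3K9ac islands covered a median of 58.3% of the span at 7 days and 42.3% without doxycycline, and H3K27ac islands 12.3% and 17.9%. The median log2 ratio of summed reads was 0.58 over the 3394 that had an island without doxycycline, and 821 of them (24.2%) were at least 2-fold higher, a share close to the 23.4% of all shared regions. The wide islands were most frequent on chromosome 17, at 22.5 per 10 Mb, and chromosome 15, at 17.6, and least frequent on chromosome 19, at 2.88. Chromosome 17 also had the largest share covered in both lists, 27.3% at 7 days and 16.7% without doxycycline. Its fold over HRP without doxycycline, 3.02, was the lowest of the 22 chromosomes.

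By chromosome, the H4K16ac ratio of summed reads was highest on chromosomes 13 and 4 and lowest on chromosomes 19, 17 and 22. The log2 ratio of summed reads was above 0 on all 22 chromosomes, between 0.084 on chromosome 19 and 0.75 on chromosome 13, but scaled to equal reads in islands it was above 0 on 4 of them. Reads per kb were below 0 on all 22, between -0.65 on chromosome 19 and -0.52 on chromosome 17. The spread in summed reads followed the covered length, whose log2 ratio was lowest on chromosome 17 at 0.71 and highest on chromosome 13 at 1.34. Less scaled HRP reads, 18 chromosomes were above 0, and chromosomes 19, 17, 22 and 20 were below it, at -0.20, -0.14, -0.099 and -0.085. Regions with an island at 7 days only outnumbered those seen without doxycycline only by 1.37 to 1 on chromosome 4 and were fewer on chromosome 19, at 0.606 to 1. The log2 ratio of summed reads at 2 days over no doxycycline, which shares the library without doxycycline, was -0.92 on chromosome 19 and 0.44 on chromosome 13. With counts divided by library size, H3K27ac had its highest 7-day ratio on chromosome 19, at 0.30, and a ratio of -0.13 on chromosome 13. On that scale H3K9ac varied little, between 0.0080 and 0.15. For H3K27ac the 7-day library was the smaller, at 1.49 against 3.98 times the HRP library, while for H4K16ac it was the larger. The part of depth in these chromosome orders was not tested.

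**Figure D5:**
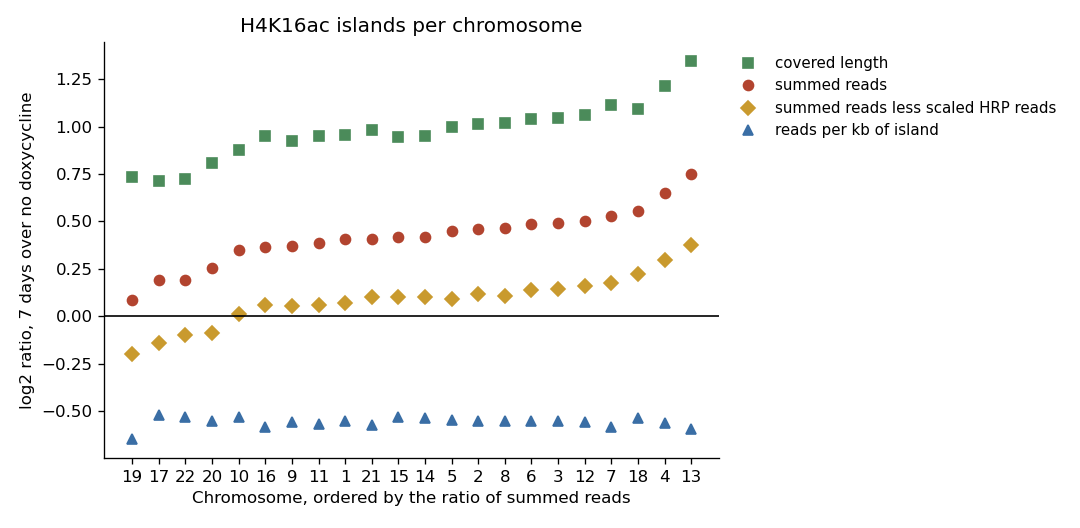
Log2 ratio of H4K16ac, 7 days over no doxycycline, for each of 22 chromosomes in order of the ratio of summed reads; squares are covered length, circles summed reads, diamonds summed reads less scaled HRP reads and triangles reads per kb of island. Chromosome 19 is lowest in summed reads (0.084) and chromosome 13 highest (0.75), and reads per kb lie below 0 throughout.

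The same order appeared along the chromosomes. Giemsa staining divides chromosomes into bands, of which the dark ones are poorer in genes and replicate later. The log2 ratio of summed reads was 0.37 in the unstained bands, and it was 0.34, 0.44, 0.57 and 0.72 in bands of rising stain intensity, from gpos25 to gpos100. Covered length carried this order, with log2 ratios of 0.92 in the unstained bands and 0.89, 0.99, 1.13 and 1.30 from gpos25 to gpos100. Reads per kb varied little, at -0.55 in the unstained bands and between -0.58 and -0.54 in the others, and length was not matched for depth. In the darkest bands islands covered 14.2% of the sequence at 7 days and 5.77% without doxycycline, and in the unstained bands 23.6% and 12.4%. H4K16ac thus still covered more of the light bands than of the dark in both lists. Of 661 bands with at least 1000 reads, 639 had a log2 ratio above 0 and 22 below it, and scaled to equal reads in islands 251 were above and 410 below. The highest were 13q21.31 at 1.34, 2q23.1 at 1.32, 13q21.32 at 1.30 and 4p15.1 at 1.28, and the lowest 10q11.21 at -0.40, 11p15.5 at -0.24, 22q13.33 at -0.23 and 19q13.31 at -0.22. In 13q21.31 the islands held 8735 thinned reads over 0.965 Mb at 7 days and 3458 reads over 0.246 Mb without doxycycline. In 10q11.21 they held 3287 thinned reads over 0.351 Mb at 7 days and 4344 reads over 0.291 Mb without doxycycline.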

How the data were processed

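H4K16ac was profiled by CUT&RUN, which sequences the fragments that an antibody-tethered nuclease cuts out of chromatin, from 200000 cells a reaction. The submitters' processing notes name hg19, the island caller SICER, the aligner Bowtie2 2.3.5.1, and Picard, deepTools, FastQC and cutadapt; their settings and the handling of duplicates are not given here. Per the file headers, each deposited list gives for every island the count of antibody reads and the count of HRP control reads, a p-value and FDR, a score and a log2 fold over the control. The log2 ratio of the deposited counts (HRP count of 0 entered as 0.25) less the deposited log2 fold is one constant per list, taken as library size in units of the HRP library: 7.88 at 7 days and 2.53 without doxycycline. The deposited score was not used. The labels mention no spike-in, and overall acetylation cannot be told apart from library size.

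The 7-day counts were thinned binomially (seed 1) and islands kept at 11 reads or more and a recomputed Poisson p-value no larger than 0.0437, the largest without doxycycline. Islands overlapping by at least 1 bp were merged, and antibody reads summed per region. Positions are 1-based on hg19, bands came from circlize 0.4.16 and chromosome lengths from GenomeInfoDb 1.38.1; computation used Python 3.11.15 with scipy 1.17.1 and numpy 2.4.6. Intervals for ratios and shares are 95% Clopper-Pearson intervals and take reads as independent; those for medians are order-statistic intervals over regions. The code was tested on counts simulated over the islands without doxycycline with their borders unchanged, so differences in called length were not part of that test. The named regions are the 10 highest and 10 lowest of like length (less than 25% apart) with at least 100 reads, the 5 with most reads in one list only, each way, and the 5 widest 7-day islands. The members and lists were chosen with earlier results of these data known. Chromosome X and other sequences (512 islands at 7 days, 643 without doxycycline) were left out, and no gene was named, because no hg19 annotation was used here.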

Additional observations from a re-analysis of the deposited data

How the results depend on the processing

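No paired analysis was possible because each side is 1 library. The 6 main values were the median log2 ratio of summed reads over shared regions (0.42), the regions at least 2-fold higher (10970) and lower (1242) at 7 days, the regions at 7 days only (27557) and without doxycycline only (27123), and the share of islands without doxycycline that overlapped a kept 7-day island (71.1%). Of 62 recomputed values, 30 moved and 2, both the median, changed sign. The limits were the order-statistic interval for the median, the Clopper-Pearson interval for the share and 1.5 times for the counts of regions. Thinning to equal reads in islands gave a median of -0.11, 2998 higher and 3587 lower regions, 17367 regions at 7 days only and a share of 53.0%. In this setting the HRP reads were still scaled to the library size without doxycycline and were not lowered with the 7-day counts. The 7-day islands thus met a stricter test, and the 17367 regions and the 53.0% are not an effect of scaling alone. The part of the stricter test was not measured. Reads per kb of island gave -0.56, 8 higher and 6698 lower. Subtracting scaled HRP reads gave 0.057, 6247 higher and 4408 lower, and centring on the median 5316 higher and 3679 lower. Without thinning the median was 0.41 and the share 74.7%. Among regions of at least 100 reads the median was 0.595, with 4489 higher and 153 lower, 701 at 7 days only and 41 without doxycycline only, and the share for such islands was 97.7%. Islands of at least 2-fold over HRP gave 0.38, 6208 higher, 44648 without doxycycline only and 49.0%. An overlap of 50% of the shorter island gave 0.46 and 66.2%. Taking 7-day islands by fold up to the covered length without doxycycline gave 0.29, 4769 higher, 15749 at 7 days only, 65900 without doxycycline only and 39.4%. The 2 other draws of the thinning and the addition of chromosome X left all 6 values within those limits. The 20 named regions of like length, picked by their ratio, had 0.11 to 0.64 and -1.28 to -0.75 without thinning. Centring gives no median or island counts, and HRP subtraction and reads per kb no island counts or share. The cause of these shifts was not tested, beyond the fewer islands or regions that a filter leaves by construction.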
